A study of Mus musculus with 48 samples.

Results

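The growth hormone axis of the mouse liver was followed through 10 genes, taken by symbol from the 23930 genes of the count table: the receptor gene Ghr, the signal transducers Stat5a and Stat5b, the circulating IGF complex genes Igf1 and Igfals, the feedback inhibitors Socs2 and Cish, and the liver target genes Hsd3b5, Car3 and Elovl3. Transcripts were measured in 48 liver libraries, 4 for each of 12 groups: mice given LX-A1656, LX-A2003 or LX-A3928, 3 modified gapmers (short antisense strands that direct RNase H to their target) against Scarb1, or the vehicle PBS, each at 24, 72 and 168 h after the first administration. No source used here gives the strain, sex or age of the mice, the dose, any later dosing, the sequence of the oligonucleotides, the hour at which tissue was taken or the sequencing runs. Whether the 4 libraries of a group are different mice is not stated, so a p-value reflects the spread among these libraries, which could be technical. Of the 10 genes, 9 passed the filter on low counts and were tested among 12672 genes. Cish did not pass and is described by its counts.

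Growth hormone reaches the liver in pulses, binds GHR on hepatocytes and activates the kinase JAK2, which phosphorylates STAT5. STAT5 then switches on Igf1 and Igfals, whose products travel in blood as a complex, and SOCS2 and CISH, which shut the receptor down again. In mice the pulsed pattern of males also keeps a set of male-biased liver genes high, Hsd3b5 and Elovl3 among them.

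The targeted gene and the make-up of the tissue were checked first. Scarb1 had 3.36 to 56.8 CPM (read counts over library size scaled by TMM factors, per 1000000) over the 36 oligonucleotide libraries and 236 to 410 CPM over the 12 PBS libraries, and was lower in all 9 comparisons with PBS. This checks the oligonucleotide libraries against PBS, not which oligonucleotide or time a library had. Library totals ran from 8140065 to 17191129 counts. In each group the library furthest from its other replicates was found by its median pairwise chi-square per degree of freedom. In 6 groups that value passed 40, and these 6 libraries are said to stand apart. The values ran from 40.3 (PBS replicate 3 at 168 h) to 218 (LX-A3928 replicate 3 at 168 h). The remaining libraries of those groups were not judged. All 16 measured hepatocyte markers were detected in every group, and their summed level at 168 h was 51442 to 70777 CPM with LX-A1656, 47193 to 55079 CPM with LX-A2003, 46629 to 102165 CPM with LX-A3928 and 89899 to 117081 CPM with PBS. The highest LX-A3928 value was that of replicate 3, and its other replicates did not exceed 56851 CPM. Summed markers of monocytes and recruited macrophages, with none of 9 at 0, were 1069 to 1652, 672 to 922 and 492 to 719 CPM in those oligonucleotide groups against 146 to 186 CPM with PBS. Proliferation markers, 5 genes, were 83.1 to 121, 159 to 215 and 151 to 262 CPM against 9.56 to 21.2 CPM. Bulk tissue does not tell fewer hepatocytes from less RNA per hepatocyte, and the part of this shift in the results below was not tested.

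Under PBS none of the 9 tested genes was called between 168 h and 24 h (1.03% of all genes were called) or between 72 h and 24 h (0.0789%) by edgeR's quasi-likelihood F test at an adjusted p under 0.05, and none by DESeq2. At an unadjusted p under 0.05 edgeR gave 2, Stat5b (0.53 on the log2 scale) and Socs2 (2.56), between 168 h and 24 h, and 0 between 72 h and 24 h. Over the 12 PBS libraries Ghr ran from 616 to 893 CPM, Igf1 from 552 to 788 CPM and Car3 from 11613 to 15517 CPM. Elovl3 ran from 837 to 2139 CPM, with means of 1585, 1003 and 1681 CPM at 24, 72 and 168 h. Its PBS libraries at 72 h all lay below those at 24 h, where 4.86% of all genes did not overlap in either direction. An edgeR fit of only those 8 libraries called that difference (-0.66, adjusted p = 0.012). Hsd3b5 was between 600.02 and 751 CPM in 10 of the 12, with 354 CPM in PBS replicate 4 at 24 h and 240.5 CPM in PBS replicate 3 at 168 h. Socs2 ran from 0 to 8.49 CPM.

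**Figure D1:**
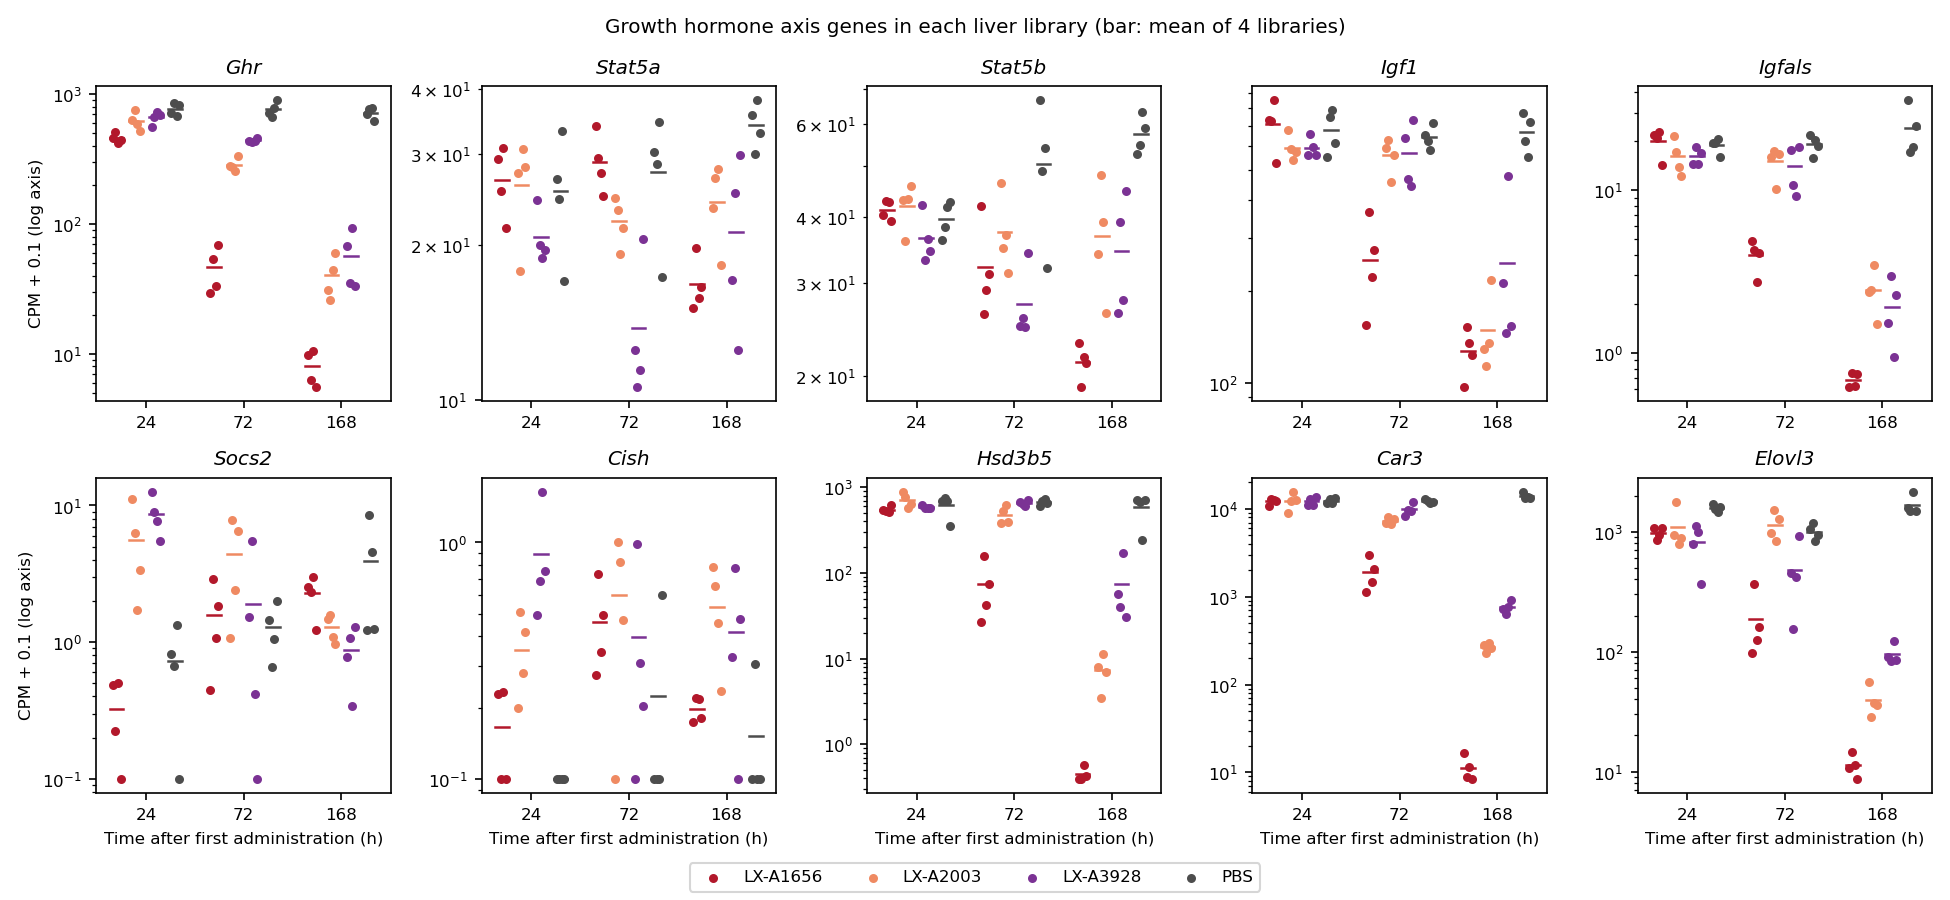
Level of each of the 10 genes in every library, in CPM + 0.1 on a log axis, against time in hours, with LX-A1656, LX-A2003, LX-A3928 and PBS side by side at each time. Points are libraries and bars are means of 4. Car3, Hsd3b5, Elovl3, Ghr and Igfals of all 3 oligonucleotides lie below every PBS library at 168 h, and LX-A1656 is the lowest group for each of these 5 genes.

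At 168 h most of the tested genes of the axis fell with each oligonucleotide, while Cish, outside the test, had 6 to 22 reads a group against 2 with PBS. With LX-A1656, 8 of the 9 tested genes fell and none rose (63.9% of all genes were called, 29.7% as lower), with a median log2 fold change of -5.32 over the 9 beside 0.10 over all genes. With LX-A2003 all 9 tested genes fell (55.1% of all genes called, 25.3% lower), with a median of -3.36 beside 0.04. That count was 7 to 8 when 1 library was left out, 7 in DESeq2 and 6 with library totals alone as the scale. It was 9 in a fit of only the libraries compared. With LX-A3928 all 9 fell (48% of all genes called, 20.7% lower), with a median of -2.99 beside 0.08. In each of these comparisons 8 of the 9 genes, all but Socs2, had oligonucleotide libraries wholly below the PBS libraries, beside 54.3%, 43.8% and 30.9% of all genes without overlap in either direction with LX-A1656, then LX-A2003, then LX-A3928. Without LX-A3928 replicate 3 the LX-A3928 differences from PBS at 168 h were -3.99 for Ghr, -0.51 for Stat5a, -0.64 for Stat5b, -1.96 for Igf1 and -3.46 for Igfals. They were -2.01 for Socs2, -3.79 for Hsd3b5, -4.20 for Car3 and -4.29 for Elovl3, and all 9 were still called.

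At 72 h 7 fell with LX-A1656 (48.2% of all genes called, 23.4% lower), 2 fell with LX-A2003 (12%, 6.55% lower) and 4 fell with LX-A3928 (9.8%, 5.33% lower), with none higher. Cell type markers already differed from PBS at 72 h with LX-A1656: the summed hepatocyte markers were 60344 to 77988 CPM, against 89606 to 98823 CPM with PBS. Those of monocytes and recruited macrophages were 300.4 to 499 CPM with LX-A1656, against 142 to 150.3 CPM with PBS, and the 7 cholangiocyte markers 212 to 452 CPM, against 116 to 125 CPM. Summed levels of the 8 sinusoidal endothelial markers lay below PBS with every oligonucleotide at 24 h and 72 h. At 72 h they were 133 to 171 (LX-A1656), 283 to 310 (LX-A2003) and 273 to 296 CPM (LX-A3928), against 413 to 495 CPM. At 24 h they were 268 to 291, 366 to 399 and 359 to 388 CPM, against 418 to 454 CPM. The hepatocyte sum of LX-A3928 replicate 4 at 72 h, 135655 CPM, exceeded all PBS sums. The part of these shifts in the 24 h and 72 h values was not tested. At 24 h edgeR called no tested gene with LX-A1656 (2.86% of all genes called), where 1 had an unadjusted p under 0.05 and DESeq2 called 1, in both cases Ghr, and a single gene, Socs2, rose with LX-A2003 (2.09%, 0.939% higher) and with LX-A3928 (3.26%, 1.68% higher). The other 7 genes differed from PBS at 24 h by between -0.96 (Elovl3 with LX-A3928) and 0.21 (Hsd3b5 with LX-A2003), none of them called. The 3 comparisons at a given time share the 4 PBS libraries of that time.

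**Figure D2:**
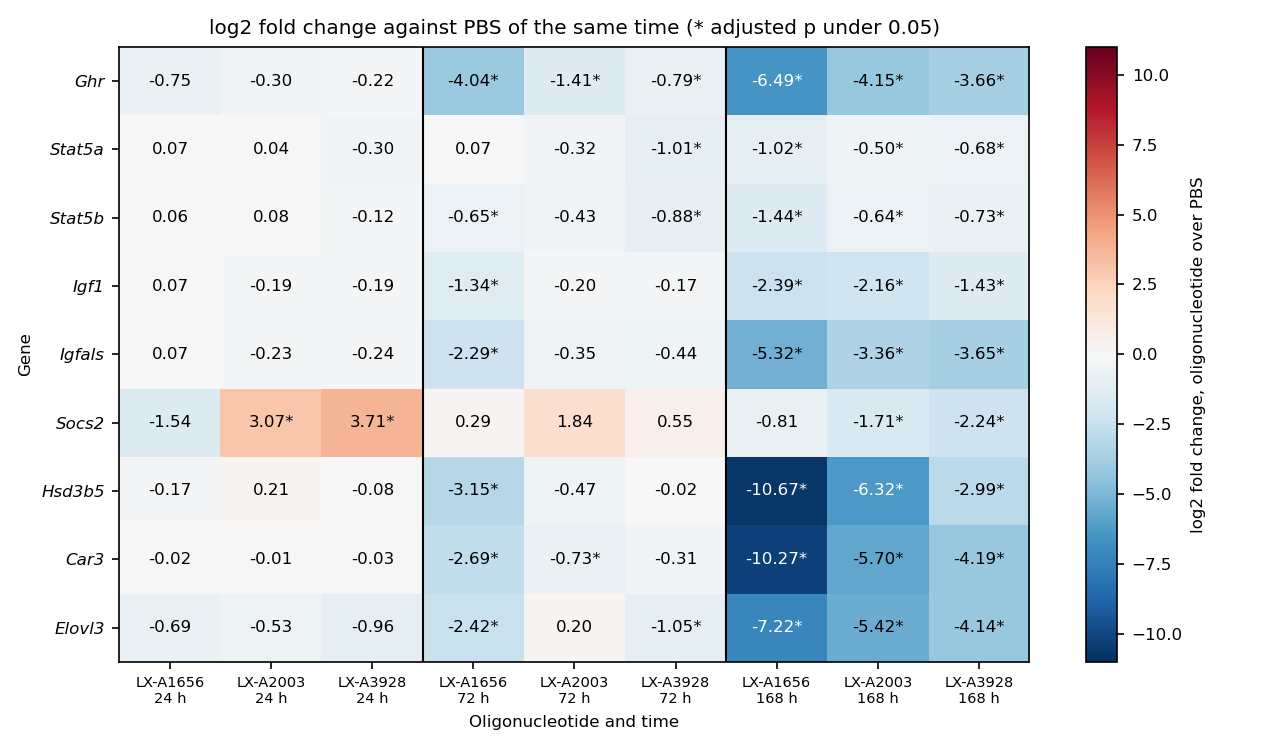
log2 fold change over PBS of the same time for the 9 tested genes, one row per gene and one column per oligonucleotide and time; blue is lower and red is higher than PBS, and an asterisk marks an adjusted p under 0.05. The deepest blue is at 168 h with LX-A1656, -10.67 for Hsd3b5 and -10.27 for Car3, while Socs2 is red at 24 h with LX-A2003 and LX-A3928.

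Ghr encodes the growth hormone receptor, the entry point of the axis in hepatocytes. At 24 h it had 459, 505, 420 and 438 CPM with LX-A1656 (replicates 1 to 4), 632, 755, 591 and 517 CPM with LX-A2003, 561, 668, 723 and 687 CPM with LX-A3928, and 718, 851, 681 and 821 CPM with PBS. All 4 LX-A1656 libraries lay below all 4 PBS libraries, while LX-A2003 and LX-A3928 overlapped PBS. The difference of LX-A1656 from PBS, -0.75 ± 0.24 (log2, SE), did not pass in the fit of all 48 libraries (adjusted p = 0.073). It did pass in DESeq2 (-0.76, adjusted p = 0.040) and in a fit of those 8 libraries alone (-0.76, adjusted p = 4.4e-05) and without the 6 libraries that stood apart (-0.75, adjusted p = 0.0062), so the call depends on the fit.

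At 72 h Ghr had 29.4, 53.3, 33.1 and 69.3 CPM with LX-A1656, 281, 275, 257 and 332 CPM with LX-A2003, 434, 427, 438 and 459 CPM with LX-A3928, and 708, 666, 779 and 893 CPM with PBS. The 4 groups did not overlap, in the order LX-A1656, LX-A2003, LX-A3928 and PBS from low to high. Ghr fell by 4.04 ± 0.27 on the log2 scale with LX-A1656, 16.5-fold (adjusted p = 4.1e-17), by 1.41 ± 0.24 with LX-A2003 (adjusted p = 2.0e-05) and by 0.79 ± 0.24 with LX-A3928 (adjusted p = 0.022). The LX-A3928 call was lost when replicate 2 or 3 of that group or PBS replicate 4 was left out, with adjusted p up to 0.072 and a difference of -0.71 or beyond.

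At 168 h Ghr had 9.64, 6.15, 10.4 and 5.47 CPM with LX-A1656, 30.9, 25.9, 44.2 and 59.8 CPM with LX-A2003, 67.5, 35.0, 92.3 and 33.0 CPM with LX-A3928, and 699, 771, 778 and 616 CPM with PBS. Every oligonucleotide library lay far below every PBS library, and LX-A2003 and LX-A3928 overlapped each other. The log2 fold changes were -6.49 ± 0.30 with LX-A1656 (90.1-fold lower), -4.15 ± 0.27 with LX-A2003 (17.8-fold) and -3.66 ± 0.26 with LX-A3928 (12.6-fold), with adjusted p of 8.3e-23, 2.1e-17 and 9.5e-16. Ranked by mean level, the LX-A1656 group at 168 h stood last with 7.91 ± 2.46 CPM (SD, n = 4). Above it came LX-A2003 at 168 h, LX-A1656 at 72 h and LX-A3928 at 168 h (40.2 to 56.9 CPM), which overlapped their neighbours, then LX-A2003 at 72 h (286 CPM), then LX-A3928 at 72 h and LX-A1656 at 24 h (439 and 455 CPM), and last the other 5 groups (624 to 768 CPM). Each of these 4 steps was free of overlap, and no other neighbouring pair of the 11 was.

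Ghr is a long gene. Its genomic span in RefSeq's GRCm38.p6 annotation, 265.6 kb, was longer than that of 97.3% of the tested genes with a span, whose median was 23.6 kb. Of 1532 other tested genes of at least 100 kb, 7 rose and 135 fell at 24 h with LX-A1656, which is 9.27% called beside 2.86% of all genes. With LX-A2003 at 24 h 7 rose and 48 fell (3.59% called beside 2.09% of all genes), and with LX-A3928 27 rose and 45 fell (4.7% beside 3.26%). At 72 h 146 of them rose and 802 fell with LX-A1656 (61.9% beside 48.2%), 27 rose and 424 fell with LX-A2003 (29.4% beside 12%), and 23 rose and 349 fell with LX-A3928 (24.3% beside 9.8%). At 168 h 346 rose and 728 fell with LX-A1656 (70.1% beside 63.9%), 355 rose and 596 fell with LX-A2003 (62.1% beside 55.1%), and 275 rose and 549 fell with LX-A3928 (53.8% beside 48%). Of the other members, Elovl3, Igfals, Cish and Car3 span 3.80, 4.17, 6.13 and 8.84 kb. Stat5a, Hsd3b5, Socs2, Stat5b and Igf1 span 25.8, 26.9, 33.4, 78.3 and 78.8 kb. The part of gene length in the results of Ghr and the other members was not tested.

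Stat5a and Stat5b encode the transcription factors that carry the receptor's signal to DNA. They are neighbouring and closely similar genes, and whether reads were split correctly between them could not be checked. At 168 h Stat5b had 23.0, 19.0, 21.7 and 21.1 CPM with LX-A1656, 34.0, 48.0, 39.1 and 26.3 CPM with LX-A2003, 26.2, 39.1, 27.8 and 44.8 CPM with LX-A3928, and 52.5, 54.8, 63.1 and 59.0 CPM with PBS. All oligonucleotide libraries lay below all PBS libraries. Stat5b fell by 1.44 ± 0.18 on the log2 scale with LX-A1656 (adjusted p = 2.2e-09), by 0.64 ± 0.18 with LX-A2003 (adjusted p = 0.0019) and by 0.73 ± 0.18 with LX-A3928 (adjusted p = 5.7e-04).

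Stat5a at 168 h had 15.0, 19.6, 15.7 and 16.5 CPM with LX-A1656, 23.5, 26.8, 27.9 and 18.1 CPM with LX-A2003, 17.0, 25.0, 12.4 and 29.8 CPM with LX-A3928, and 35.6, 29.8, 38.0 and 32.8 CPM with PBS. All oligonucleotide libraries lay below all PBS libraries, the highest LX-A3928 library by less than 0.1 CPM. The log2 fold changes were -1.02 ± 0.22 with LX-A1656 (adjusted p = 7.2e-05), -0.50 ± 0.22 with LX-A2003 (adjusted p = 0.047) and -0.68 ± 0.22 with LX-A3928 (adjusted p = 0.0080). The LX-A2003 and LX-A3928 calls depend on the scaling. With library totals alone as the scale, the median of all genes at 168 h moved to 0.45 for LX-A2003 and 0.39 for LX-A3928, and to 0.56 for LX-A1656. Stat5a then differed from PBS by -0.08 with LX-A2003 and -0.34 with LX-A3928, and Stat5b by -0.24 and -0.41, none of them called, though all still below that median. Without the 6 libraries that stood apart, Stat5a was not called with LX-A2003 (-0.33, adjusted p = 0.16) or LX-A3928 (-0.45, adjusted p = 0.063), and the LX-A2003 call was lost in 5 of the 8 fits that left out 1 library.

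At 72 h Stat5a had 12.4, 10.5, 11.4 and 20.4 CPM with LX-A3928, against 30.1, 28.5, 34.4 and 17.2 CPM with PBS, and fell by 1.01 ± 0.22 on the log2 scale (adjusted p = 0.0012). A single PBS library, replicate 4, lay inside the LX-A3928 range. With LX-A1656 Stat5a had 24.8 to 33.8 CPM and was not called (0.07 ± 0.22, adjusted p = 0.83), and LX-A3928 was below LX-A1656 by 1.08 ± 0.22 (adjusted p = 9.8e-05). The difference of LX-A3928 from LX-A2003, -0.69 ± 0.22, did not pass (adjusted p = 0.18), though it did without the 6 libraries that stood apart (-0.94, adjusted p = 0.0047). Stat5b fell with LX-A1656 (-0.65 ± 0.18, adjusted p = 0.0020) and with LX-A3928 (-0.88 ± 0.18, adjusted p = 4.2e-04). With LX-A2003 neither passed, Stat5a at -0.32 ± 0.22 (adjusted p = 0.41) and Stat5b at -0.43 ± 0.18 (adjusted p = 0.11).

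Igf1 encodes the main circulating growth factor made by the liver under growth hormone. At 24 h it ran from 529 to 850 CPM over the 12 oligonucleotide libraries, against 552 to 788 CPM with PBS. Igf1 had 154, 365, 223 and 273 CPM at 72 h with LX-A1656, against 653, 622, 584 and 717 CPM with PBS. The groups did not overlap, and Igf1 fell by 1.34 ± 0.25 on the log2 scale (adjusted p = 1.4e-05). With LX-A2003 it had 458 to 627 CPM at 72 h (-0.20, adjusted p = 0.70) and with LX-A3928 445 to 734 CPM (-0.17, adjusted p = 0.75). At 168 h it had 96.8, 153, 135 and 123 CPM with LX-A1656, 129, 114, 135 and 218 CPM with LX-A2003, 213, 146, 478 and 154 CPM with LX-A3928, and 773, 623, 552 and 719 CPM with PBS. All oligonucleotide libraries stayed below all PBS libraries, with LX-A3928 replicate 3 far above the others of its group. Igf1 fell by 2.39 ± 0.26 with LX-A1656 (5.25-fold, adjusted p = 4.6e-11), by 2.16 ± 0.25 with LX-A2003 (4.47-fold, adjusted p = 9.6e-10) and by 1.43 ± 0.25 with LX-A3928 (2.7-fold, adjusted p = 5.5e-06).

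Igfals encodes the acid-labile subunit that holds IGF1 in its large blood complex and is a known STAT5 target. Sequence before 1 of its listed starts is shown. Igfals was the only gene of the 7 with RefSeq start entries whose windows held the STAT5 motif TTCNNNGAA, which reads the same on both strands. The motif occurred in 2 of the 12 windows of 250 bases before a listed start of these 7 genes, both of Igfals, and in 7.02% of all 32851 such windows. The first Igfals window, which ends just before the annotated span of the gene (chr17:24877844-24882011), had TTCTCAGAA, 236 bases before its start. The second window lies inside that span, before a start listed within the gene. The second, printed here from GRCm38.p6 at chr17:24877981-24878230 (plus strand, 5′ to 3′) with the motif in capitals, had TTCCTAGAA 58 bases before its start.
Igfals: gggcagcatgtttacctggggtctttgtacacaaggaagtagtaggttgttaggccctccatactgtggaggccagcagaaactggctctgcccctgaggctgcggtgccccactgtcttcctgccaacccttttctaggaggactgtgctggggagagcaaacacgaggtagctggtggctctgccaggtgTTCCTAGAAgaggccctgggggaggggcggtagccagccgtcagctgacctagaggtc
These letters are a match only, and no binding was measured.

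At 24 h Igfals ran from 12.2 to 22.8 CPM over the 12 oligonucleotide libraries, against 15.9 to 20.6 CPM with PBS. Igfals had 4.78, 4.18, 2.61 and 4.02 CPM at 72 h with LX-A1656, against 21.8, 15.6, 20.2 and 18.6 CPM with PBS, and fell by 2.29 ± 0.26 on the log2 scale (adjusted p = 5.0e-10). With LX-A2003 it had 10.1 to 17.4 CPM at that time (-0.35, adjusted p = 0.41) and with LX-A3928 9.15 to 18.3 CPM (-0.44, adjusted p = 0.28), which overlapped PBS. At 168 h it had 0.519, 0.657, 0.526 and 0.644 CPM with LX-A1656, 2.28, 2.32, 3.39 and 1.41 CPM with LX-A2003, 1.44, 2.87, 0.852 and 2.16 CPM with LX-A3928, and 35.6, 17.0, 18.4 and 24.8 CPM with PBS. LX-A1656 lay below the other oligonucleotides in every library, and all 3 groups lay below PBS. The log2 fold changes were -5.32 ± 0.32 with LX-A1656 (40.1-fold lower), -3.36 ± 0.28 with LX-A2003 (10.3-fold) and -3.65 ± 0.28 with LX-A3928 (12.6-fold), with adjusted p of 5.2e-19, 3.5e-14 and 1.0e-14. The LX-A1656 level rests on 7 to 11 reads per library.

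Hsd3b5 encodes a male-biased hydroxysteroid dehydrogenase of mouse liver that acts on steroids and needs pulsed growth hormone. At 72 h it had 27.0, 156, 42.2 and 74.6 CPM with LX-A1656, 382, 525, 625 and 396 CPM with LX-A2003, 676, 637, 607 and 709 CPM with LX-A3928, and 600, 685, 727 and 657 CPM with PBS. It fell with LX-A1656 by 3.15 ± 0.41 on the log2 scale (adjusted p = 2.3e-08), and by 3.80 without replicate 2, the highest of that group. With LX-A2003 (-0.47, adjusted p = 0.51) and LX-A3928 (-0.02, adjusted p = 0.99) it did not pass. At 168 h it had 0.297, 0.299, 0.467 and 0.322 CPM with LX-A1656, 7.87, 3.34, 11.2 and 6.85 CPM with LX-A2003, 56.4, 40.3, 171 and 30.4 CPM with LX-A3928, and 711, 683, 240.5 and 718 CPM with PBS. No groups overlapped, in the order LX-A1656, LX-A2003, LX-A3928 and PBS. The log2 fold changes were -10.67 ± 0.63 with LX-A1656 (adjusted p = 2.4e-18), -6.32 ± 0.48 with LX-A2003 (80.1-fold lower, adjusted p = 1.9e-14) and -2.99 ± 0.41 with LX-A3928 (7.92-fold lower, adjusted p = 7.8e-08). The last of these was -3.79 without LX-A3928 replicate 3. With LX-A1656 the 4 libraries held 4 to 8 reads each, so its 1630-fold lower level is only as exact as those counts.

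Car3 encodes carbonic anhydrase 3, an abundant hepatocyte protein whose transcript is known in rodents to follow growth hormone. At 72 h it had 1121, 2969, 1458 and 2047 CPM with LX-A1656, 6834, 8170, 6809 and 7687 CPM with LX-A2003, 8381, 9658, 9356 and 12097 CPM with LX-A3928, and 12996, 12313, 11775 and 11960 CPM with PBS. LX-A3928 overlapped PBS through 1 library and the other oligonucleotides did not. Car3 fell by 2.69 ± 0.20 on the log2 scale with LX-A1656 (adjusted p = 2.1e-15) and by 0.73 ± 0.19 with LX-A2003 (adjusted p = 0.0056), and did not pass with LX-A3928 (-0.31 ± 0.19, adjusted p = 0.35). At 168 h it had 16.6, 8.78, 11.3 and 8.37 CPM with LX-A1656, 279, 227, 301 and 262 CPM with LX-A2003, 725, 637, 769 and 914 CPM with LX-A3928, and 15517, 13365, 13534 and 13344 CPM with PBS. The 4 groups were far apart. Their SD was 33.7% of the mean with LX-A1656, 11.7% with LX-A2003, 15.2% with LX-A3928 and 7.57% with PBS. The log2 fold changes were -10.27 ± 0.28 with LX-A1656 (1240-fold lower), -5.70 ± 0.23 with LX-A2003 (52.1-fold) and -4.19 ± 0.22 with LX-A3928 (18.3-fold), with adjusted p of 6.3e-31, 5.5e-24 and 1.2e-20. Car3 had 5 of 11 neighbouring pairs of groups without overlap, more than any other of the 10 genes.

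Elovl3 encodes a fatty acid elongase of very long chains, higher in male than in female mice and known to cycle with the day. At 24 h it had 1073, 855, 933 and 1076 CPM with LX-A1656, 931, 1769, 795 and 890 CPM with LX-A2003, 795, 1108, 1004 and 364 CPM with LX-A3928, and 1721, 1553, 1449 and 1619 CPM with PBS. LX-A1656 and LX-A3928 lay wholly below PBS and LX-A2003 overlapped it through replicate 2, but none of the 3 passed (adjusted p = 0.41, 0.58 and 0.13 for LX-A1656, LX-A2003 and LX-A3928). When its 8 libraries were fitted by themselves the LX-A1656 difference did pass (-0.69, adjusted p = 1.0e-04). At 72 h it had 98.3, 365, 126 and 160 CPM with LX-A1656, 969, 1514, 835 and 1276 CPM with LX-A2003, 450, 153, 417 and 916 CPM with LX-A3928, and 1059, 1181, 837 and 936 CPM with PBS. Elovl3 fell with LX-A1656 by 2.42 ± 0.36 on the log2 scale (adjusted p = 3.0e-07) and did not pass with LX-A2003 (0.20 ± 0.34, adjusted p = 0.81). The LX-A3928 call, at -1.05 ± 0.34 (adjusted p = 0.042), was lost in 6 of the 8 fits that left out 1 library, with a difference of -0.76 without replicate 2 of that group.

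At 168 h Elovl3 had 10.7, 14.6, 11.2 and 8.61 CPM with LX-A1656, 56.1, 28.2, 37.0 and 35.7 CPM with LX-A2003, 89.9, 83.9, 123 and 84.4 CPM with LX-A3928, and 1582, 1502, 2139 and 1500.4 CPM with PBS. The groups did not overlap. The log2 fold changes were -7.22 ± 0.45 with LX-A1656 (149-fold lower), -5.42 ± 0.41 with LX-A2003 (42.8-fold) and -4.14 ± 0.39 with LX-A3928 (17.7-fold), with adjusted p of 7.4e-18, 1.0e-14 and 5.7e-12.

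Socs2 and Cish encode inhibitors that STAT5 induces. At 24 h Socs2 rose with LX-A2003 and with LX-A3928, and Cish, which is read from few counts, had reads in every library of these groups and in none of PBS. Socs2 had 11.0, 6.20, 1.63 and 3.28 CPM at 24 h with LX-A2003 and 12.4, 8.80, 7.58 and 5.42 CPM with LX-A3928, but 0.386, 0.122, 0.398 and 0 CPM with LX-A1656, and 0.718, 0.564, 1.23 and 0 CPM with PBS. Every LX-A2003 and LX-A3928 library exceeded every PBS library, and LX-A1656 overlapped PBS. Socs2 rose by 3.07 ± 0.79 on the log2 scale with LX-A2003 (8.41-fold, adjusted p = 0.026) and by 3.71 ± 0.78 with LX-A3928 (13.1-fold, adjusted p = 0.0027). Counts were low, 24 reads over the 4 PBS libraries. The LX-A2003 call was lost in 5 of the 8 fits without 1 library (adjusted p up to 0.13), and the LX-A3928 call in none.

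Cish had 1, 4, 2 and 3 reads at 24 h with LX-A2003, 5, 6, 18 and 8 reads with LX-A3928, 1, 0, 1 and 0 reads with LX-A1656, and 0 in all 4 PBS libraries. Its level was at least 9.7-fold higher with LX-A3928 and at least 3.04-fold higher with LX-A2003 than in PBS, taking 3 reads over the PBS group as the floor, a bound that covers counting error only. In a fit without the filter on low counts, Cish with LX-A3928 passed and Cish with LX-A2003 and LX-A1656 did not (adjusted p = 0.0049, 0.24 and 0.81 in that order). At 72 h the sums were 17 reads with LX-A1656, 24 with LX-A2003, 11 with LX-A3928 and 5 with PBS. At 168 h it had 6 reads with LX-A1656, 22 with LX-A2003, 17 with LX-A3928 and 2 with PBS. The ratios of level to PBS in that order were 1.65 (95% counting interval 0.295 to 16.7), 7.05 (1.73 to 61.8) and 5.82 (1.38 to 51.9). Both PBS reads came from 1 library. In the fit without the filter none of these 168 h differences passed (adjusted p = 0.79, 0.055 and 0.13 in that order).

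At 72 h Socs2 had 0.348, 2.82, 0.98 and 1.74 CPM with LX-A1656, 0.974, 7.70, 2.30 and 6.35 CPM with LX-A2003, 1.44, 5.42, 0.315 and 0 CPM with LX-A3928, and 1.34, 0.552, 0.962 and 1.89 CPM with PBS. All 3 overlapped PBS and none passed, at 0.29 ± 0.79, 1.84 ± 0.73 and 0.55 ± 0.78 in that order, with adjusted p of 0.80, 0.10 and 0.75.

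At 168 h Socs2 had 2.45, 2.21, 2.92 and 1.13 CPM with LX-A1656, 1.38, 1.49, 0.981 and 0.873 CPM with LX-A2003, 0.682, 0.98, 0.243 and 1.19 CPM with LX-A3928, and 1.13, 8.49, 4.44 and 1.14 CPM with PBS. The groups overlapped. Socs2 fell by 1.71 ± 0.72 on the log2 scale with LX-A2003 (adjusted p = 0.041) and by 2.24 ± 0.75 with LX-A3928 (adjusted p = 0.013). Without PBS replicate 2 the differences were -0.91 (adjusted p = 0.34) with LX-A2003 and -1.44 (adjusted p = 0.15) with LX-A3928. The LX-A2003 call was also lost without any 1 of its own libraries or PBS replicate 3. A gene of the daily clock, Dbp, was also higher at 24 h. It had 8.67 ± 3.46 CPM with LX-A1656, 20.0 ± 10.5 CPM with LX-A2003, 72.6 ± 14.0 CPM with LX-A3928 and 1.16 ± 0.89 CPM with PBS at 24 h (SD, n = 4), and 16.5 ± 9.49 CPM with PBS at 72 h. In the same order the Socs2 means were 0.227, 5.52, 8.55 and 0.627 CPM at 24 h, and 1.19 CPM with PBS at 72 h. Clock genes as a list moved both ways at 24 h. With LX-A1656 2 rose and 3 fell, with LX-A2003 4 rose and 3 fell, and with LX-A3928 6 rose and 4 fell. Of all genes 2.86%, 2.09% and 3.26% were called. The part of the daily clock in the Socs2 and Cish values was not tested.

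The oligonucleotides were compared with each other at the same time, in 9 comparisons adjusted over all genes in each. At 168 h LX-A2003 was above LX-A1656 in 6 of the 9 tested genes (32.1% of all genes called, 18.3% higher), LX-A3928 was above LX-A1656 in 7 (41.7%, 23.2% higher) and LX-A3928 was above LX-A2003 in 3 (8.1%, 5.33% higher), with none lower. The last share rests on 1026 genes called, which leaving out 1 library moved to between 230 and 1807, and which was 29 in the fit of those 8 libraries. Car3 separated all 3, by 4.57 ± 0.22, 6.08 ± 0.24 and 1.51 ± 0.19 on the log2 scale in that order, with adjusted p of 2.3e-20, 2.6e-24 and 1.4e-06. Hsd3b5 did so too, by 4.34 ± 0.61, 7.68 ± 0.59 and 3.34 ± 0.43, of which the differences of LX-A3928 were 6.87 from LX-A1656 and 2.53 from LX-A2003 without LX-A3928 replicate 3. Elovl3 differed by 1.80 ± 0.36, 3.07 ± 0.38 and 1.27 ± 0.35, and the last was not called without LX-A3928 replicate 3 (1.13, adjusted p = 0.14), without LX-A2003 replicate 2 or 3, or in 3 other alternatives. Igf1 did not pass between LX-A2003 and LX-A1656 (0.23, 95% interval -0.26 to 0.72), and its higher level with LX-A3928 than with LX-A1656 (0.96 ± 0.25, adjusted p = 0.0015) was not called without LX-A3928 replicate 3 (0.43, adjusted p = 0.096). For Igfals the difference of LX-A3928 from LX-A2003 was -0.30 (-0.91 to 0.32) and for Ghr 0.50 (0.01 to 0.98, adjusted p = 0.21). In the fit of those 8 libraries alone Hsd3b5 also missed the threshold between LX-A3928 and LX-A2003 (3.42, adjusted p = 0.066).

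At 72 h LX-A2003 and LX-A3928 were each above LX-A1656 in 6 of the 9 tested genes, with LX-A3928 below it in Stat5a (35.9% of all genes called and 18% higher with LX-A2003, and 40.6% called, 20.4% higher and 20.1% lower with LX-A3928). Ghr was higher by 2.63 ± 0.25 with LX-A2003 and by 3.25 ± 0.26 with LX-A3928 than with LX-A1656, in log2 units. None of the 9 was called between LX-A3928 and LX-A2003 at 72 h in edgeR, where 0.718% of all genes were and 5 of the 9 had an unadjusted p under 0.05. DESeq2 called 1, Elovl3, which was lower with LX-A3928 (-1.25, adjusted p = 0.024). At 24 h Socs2 was called in both comparisons with LX-A1656 (0.284% of all genes called and 0.166% higher with LX-A2003, 2.9% and 1.5% with LX-A3928), higher by 4.62 ± 0.97 with LX-A2003 (adjusted p = 0.016) and by 5.25 ± 0.94 with LX-A3928 (adjusted p = 6.3e-04). The LX-A2003 one was lost in 5 of the 8 fits that left out 1 library. None of the 9 genes was called between LX-A3928 and LX-A2003 at 24 h (0.15% of all genes called), by edgeR or DESeq2 or at an unadjusted p under 0.05.

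**Figure D3:**
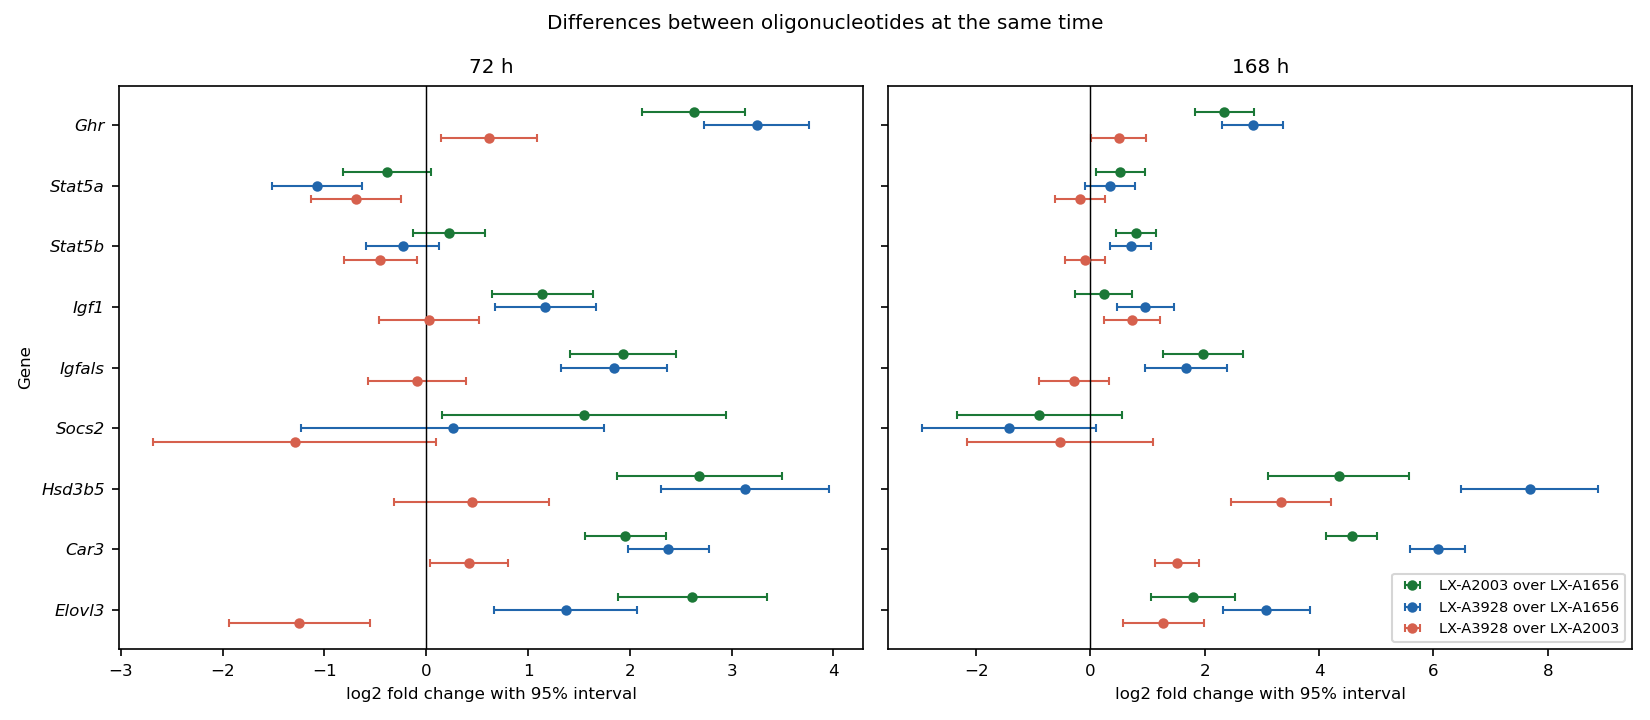
Differences between oligonucleotides at 72 h and at 168 h for the 9 tested genes, as log2 fold changes with 95% intervals. Points right of 0 are higher in the oligonucleotide named first; at 168 h the Car3, Hsd3b5 and Elovl3 intervals of all 3 pairs lie right of 0, and those of Igfals for LX-A3928 over LX-A2003 cross it.

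Differences from PBS were lower at 168 h than before for most of the genes. Tested as a difference of differences from PBS, the effect at 168 h was below that at 24 h for 8 of the 9 genes with LX-A1656 (47% of all genes called, 23.8% lower), 8 with LX-A2003 (38.5%, 18.5% lower) and 7 with LX-A3928 (32.4%, 15% lower). It was below that at 72 h for 8 genes with LX-A1656 (30.1%, 16.1% lower), 7 with LX-A2003 (29.7%, 13.8% lower) and 6 with LX-A3928 (23%, 10.5% lower). Socs2 is among the genes counted with LX-A2003, and among those against 24 h with LX-A3928, and had gone from a rise at 24 h to a fall at 168 h. Stat5a with LX-A3928 was no lower at 168 h (-0.68) than at 72 h (-1.01). Car3 with LX-A2003 shows the course of a gene that fell further: its difference from PBS was -0.01 ± 0.19 at 24 h, -0.73 ± 0.19 at 72 h and -5.70 ± 0.23 at 168 h. With LX-A1656 the corresponding values were -0.02 ± 0.19, -2.69 ± 0.20 and -10.27 ± 0.28. Scarb1 did not follow that order, at -4.68, -6.10 and -4.30 with LX-A1656, -3.56, -5.78 and -4.68 with LX-A2003, and -2.50, -5.26 and -5.09 with LX-A3928.

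Other genes of the axis were read from lists that leave the 10 genes out. Over all genes at 168 h, 34.1% rose and 29.7% fell with LX-A1656, 29.8% rose and 25.3% fell with LX-A2003, and 27.3% rose and 20.7% fell with LX-A3928. Of 18 tested male-biased liver genes that depend on pulsed growth hormone in mice, 17 fell and 1 rose at 168 h with LX-A1656, 16 fell and 1 rose with LX-A2003, and 14 fell and 1 rose with LX-A3928. Their medians were -4.07, -2.30 and -1.51 on the log2 scale, against 0.10, 0.04 and 0.08 over all genes. Cyp7b1, an oxysterol hydroxylase, fell by 8.60 with LX-A1656, by 5.60 with LX-A2003 and by 3.99 with LX-A3928. Cyp4a12a, a fatty acid hydroxylase, fell by 6.35, 3.14 and 1.77 in that order, and Mup3, a major urinary protein gene, fell by 4.87, 3.87 and 2.22. The gene that rose was Mup20 in all 3, by 1.16, 1.90 and 2.96. It was named after its values were seen, and it shares its multigene family with Mup3, so how reads were divided within the family is uncertain. At 72 h the list had 12 lower and 2 higher with LX-A1656, against 2 and 2 with LX-A2003 and 1 and 2 with LX-A3928. Of all genes 48.2%, 12% and 9.8% were called at 72 h in that order, 23.4%, 6.55% and 5.33% as lower.

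Of 18 tested female-biased genes that are held down in male mice, 10 rose and 4 fell at 168 h with LX-A1656, 4 rose and 5 fell with LX-A2003, and 3 rose and 4 fell with LX-A3928. The shares that rose, 55.6%, 22.2% and 16.7%, were above that of all genes for LX-A1656 and below it for the other oligonucleotides. Their medians were 1.65, 0.41 and -0.14. Atp6v0d2, a proton pump subunit, rose in all 3, by 5.02, 4.08 and 3.38, and is also known from macrophages and osteoclasts. Cyp17a1, a steroid hydroxylase, rose by 3.16 with LX-A1656 and did not pass with LX-A2003 (0.33) or LX-A3928 (-0.53). Hao2, an oxidase of 2-hydroxy acids, fell by 6.20, 3.83 and 2.78, and the cytochrome P450 gene Cyp2b13 fell in all 3 as well (-5.21, -5.85 and -4.43). Cyp2b13 reads may be shared with its close relatives.

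**Figure D4:**
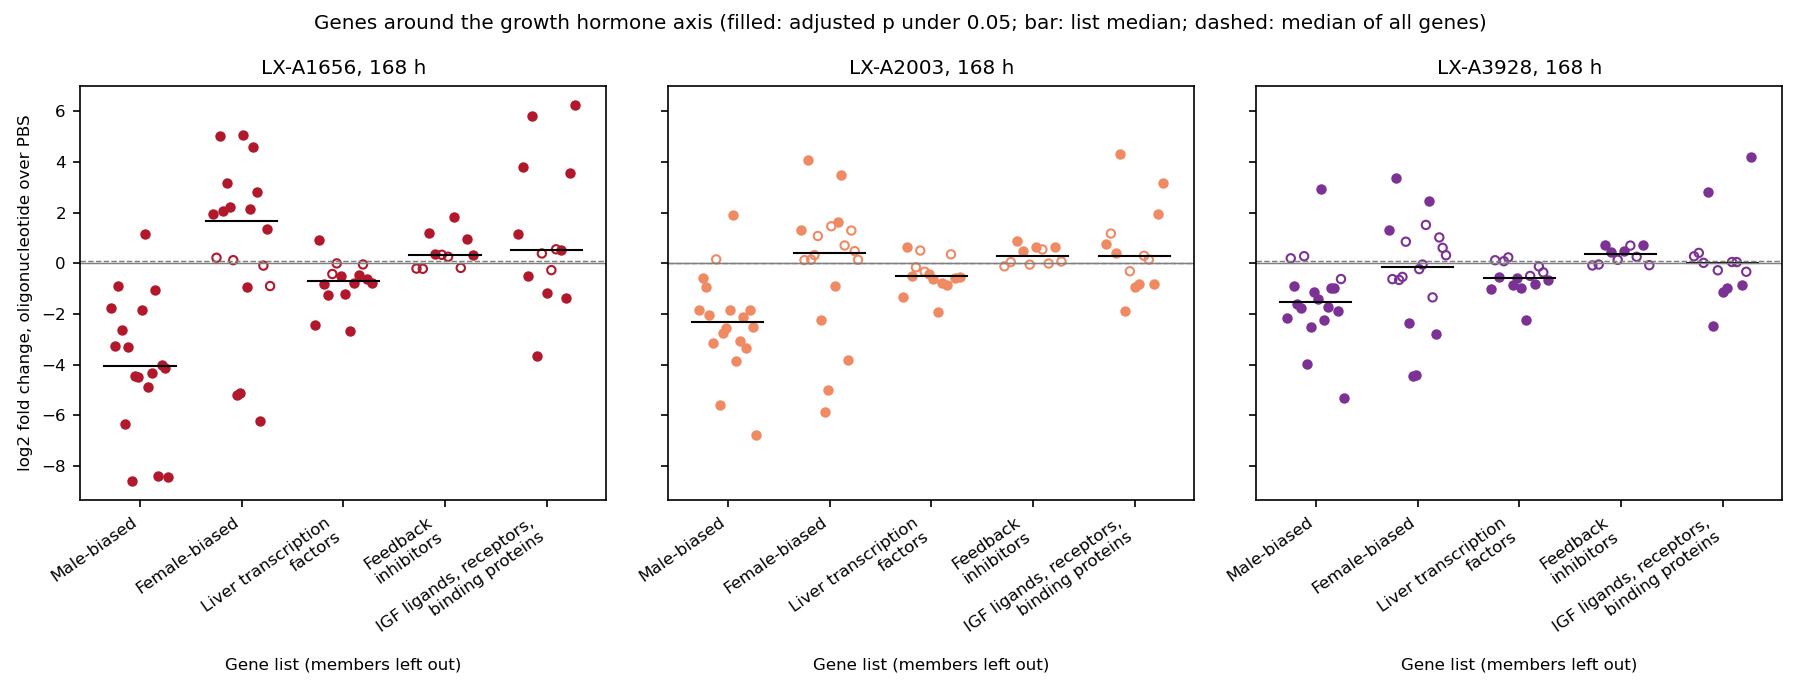
log2 fold change over PBS at 168 h for the genes of 5 lists around the growth hormone axis, in a panel for each oligonucleotide; filled points have an adjusted p under 0.05, black bars are list medians and the dashed line is the median of all genes. The median of the male-biased list lies below the dashed line with all 3 oligonucleotides, and the female-biased list runs from below -4 to above 3 with each of them.

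In the IGF list, 6 of 13 tested genes rose and 4 fell at 168 h with LX-A1656, 5 rose and 4 fell with LX-A2003, and 2 rose and 4 fell with LX-A3928. In shares 46.2%, 38.5% and 15.4% rose and 30.8% fell in each. Igfbp1, a binding protein that insulin keeps low, had 1621 ± 340 CPM with LX-A1656, 579 ± 60.7 CPM with LX-A2003, 206 ± 49.0 CPM with LX-A3928 and 28.9 ± 2.87 CPM with PBS (SD, n = 4). It rose by 5.81, 4.32 and 2.83 on the log2 scale. Igfbp2, another binding protein, fell by 3.65, 1.90 and 2.48, and the insulin receptor gene Insr by 1.38, 0.82 and 0.87.

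Around the receptor, 14 signalling genes were tested. At 168 h 5 rose and 3 fell with LX-A1656, 3 rose and 3 fell with LX-A2003, and 4 rose and 2 fell with LX-A3928. These shares, 35.7%, 21.4% and 28.6% higher and 21.4%, 21.4% and 14.3% lower, lay near or below those of all genes. Prlr, the prolactin receptor and a relative of GHR that also signals through STAT5, had 8.40 ± 3.35 CPM with LX-A1656, 42.6 ± 19.7 CPM with LX-A2003, 56.4 ± 18.9 CPM with LX-A3928 and 251 ± 29.0 CPM with PBS. It fell by 4.89, 2.56 and 2.16. Src, a tyrosine kinase expressed in many cell types, rose by 3.55, 3.04 and 2.13. Of 10 tested feedback inhibitors of cytokine receptors, 5, 4 and 4 rose in the order LX-A1656, LX-A2003, LX-A3928 and none fell, which is 50%, 40% and 40% higher. Ptpn1, a tyrosine phosphatase, rose by 1.18, 0.89 and 0.72. With library totals alone as the scale 7, 5 and 5 of the list were called as higher, and in the fits of 8 libraries 3, 4 and 2.

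Transcription factors that act beside STAT5 in hepatocytes were mostly lower at 168 h. Of 14 tested, 10 fell and 1 rose with LX-A1656, 9 fell and 1 rose with LX-A2003, while with LX-A3928 8 fell and none rose. Nr1i3, the xenobiotic receptor CAR, fell by 2.67, 1.93 and 2.25, and Cebpa fell by 2.44, 1.34 and 1.02. The shares that fell were 71.4%, 64.3% and 57.1%. Over the alternatives tried, the number lower ran from 4 to 10, 2 to 9 and 4 to 9.

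Conditions known to blunt growth hormone action were read the same way. In a list of 18 tested inflammatory genes, 9 rose and 1 fell at 168 h with LX-A1656, 8 rose and 3 fell with LX-A2003, and 9 rose and 3 fell with LX-A3928. The shares that rose, 50%, 44.4% and 50%, were above those of all genes. Ccl2, a monocyte chemoattractant, rose by 7.34, 5.82 and 4.71, and Lcn2, a secreted iron-binding protein, by 8.08, 5.33 and 3.98. In a list of 16 fasting and FGF21 genes, 11 rose and 3 fell with LX-A1656, 7 rose and 5 fell with LX-A2003, and 6 rose and 6 fell with LX-A3928. In shares 68.8%, 43.8% and 37.5% rose and 18.8%, 31.2% and 37.5% fell. Cpt1a, which brings fatty acids into mitochondria, rose by 1.26, 1.34 and 1.30. The monocyte and macrophage markers given above rose with the inflammatory list, and their part in it was not tested.

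Relatives of the target genes were also measured. Of 13 tested carbonic anhydrase, elongase and 3-beta-hydroxysteroid dehydrogenase genes, 3 rose and 7 fell at 168 h with LX-A1656, 4 rose and 6 fell with LX-A2003, and 4 rose and 6 fell with LX-A3928. The shares that fell were 53.8%, 46.2% and 46.2%. Car5a, the mitochondrial carbonic anhydrase of hepatocytes, fell by 3.30, 2.17 and 1.68. Elovl7, another elongase, rose by 5.18, 5.50 and 5.13. Hsd3b2 fell by 4.03, 3.00 and 2.08, and its reads cannot be separated here from those of similar Hsd3b genes, Hsd3b5 included.

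Genes with the most similar course over the 12 group means were found for the 7 tested genes whose means spanned at least 2 log2 units, by the root-mean-square difference of centred log2 CPM. Nearest to Ghr were Cmah (0.28) and Aox3 (0.32), and nearest to Igf1 were Haao (0.14) and Lactb (0.14). Nearest to Igfals were Ces2a (0.28) and Fn3k (0.29). Sult2a8 was nearest to both Hsd3b5 (0.39) and Car3 (0.43), followed by Mup21 (0.68) and 1500017E21Rik (0.60). Elovl3 was nearest to Aox3 (0.47) and Ces3b (0.55). Socs2 had no close match, with Gadd45g at 0.76 and Chac1 at 0.89.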

How the data were processed

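Whole-number read counts per gene were deposited for 48 mouse liver libraries made, per the labels, with an Ion AmpliSeq transcriptome kit, which amplifies a designed fragment of each gene, which is all that a value covers. No source used here names an aligner, a counter, a genome build or a filter. All sample columns were joined to groups through the library names in the labels. Genes were kept with filterByExpr of edgeR 4.0.16 (R 4.3.3), which left 12672 genes and at least 99.891% of each library's counts. Libraries were scaled by TMM (factors 0.794 to 1.31). All 48 libraries entered 1 model with a mean for each of the 12 groups (36 residual degrees of freedom, common biological coefficient of variation 0.2114), and the robust quasi-likelihood F test gave p-values adjusted by Benjamini-Hochberg over all genes in each comparison. Genes below 0.05 after adjustment count as called. The SE is the absolute log2 fold change over the square root of F. Levels of all 10 genes, Cish included, are CPM from the same scaled totals.

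Tested alternatives were 2 other scalings, no filter, DESeq2 1.42.0, the replicate number as a block, only the libraries compared, each library left out in turn and, added after seeing the data, leaving out the 6 libraries that stood apart. The fit was also tested on simulated counts with known changes.

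The members and lists were chosen with earlier results of these data known. All 10 members and Scarb1 are named whatever their result, those not called often by a range. From each list up to 3 called genes with the smallest p in a comparison may be named, with a fold for each oligonucleotide. A gene that this rule names is not reported here. The 2 genes outside the 10 members whose pattern is nearest to each member's are named as well. Promoter windows come from RefSeq (GRCm38.p6), and spans from its gene table, which held 95.5% of the tested genes. Socs2, Car3 and Elovl3 had no promoter window. Counting intervals are exact (Clopper-Pearson, 95%). Both these intervals and the floors cover counting error alone: without molecular identifiers, PCR copies of a molecule cannot be told from separate molecules.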

Additional observations from a re-analysis of the deposited data

Results flagged for a closer look

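In 11 of the 120 groups of 4 libraries (10 genes in 12 groups) the highest or lowest library lay further from the others than Dixon's 95% limit. Cish in PBS at 24 h, with 0 in every library, could not be judged. For normally distributed values chance gives about 1 in 20 groups, a rate that need not hold for genes with few reads. For Hsd3b5 these were LX-A3928 replicate 1 at 24 h (629 CPM, the highest), PBS replicate 4 at 24 h (354 CPM, the lowest), LX-A1656 replicate 3 at 168 h (0.467 CPM, the highest) and PBS replicate 3 at 168 h (240.5 CPM, the lowest). For Elovl3 they were the highest libraries LX-A2003 replicate 2 at 24 h (1769 CPM), LX-A3928 replicate 3 at 168 h (123 CPM) and PBS replicate 3 at 168 h (2139 CPM). The rest were also highest in their groups: Car3 in PBS replicate 1 at 168 h (15517 CPM), Stat5b in LX-A3928 replicate 4 at 72 h (34.1 CPM), and Cish in PBS replicate 4 at 72 h (0.498 CPM) and PBS replicate 2 at 168 h (0.207 CPM). In both Cish groups the other libraries were at 0, where any read passes the limit. LX-A3928 replicate 3 and PBS replicate 3 at 168 h, and LX-A3928 replicate 4 at 72 h, are among the 6 libraries that stood apart over all genes.

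The effect of an oligonucleotide against PBS differed between times, by edgeR's test of the difference with adjustment over all genes, in 44 of the 54 cases made by 9 genes and 6 contrasts. All were lower at 168 h, in log2 units. With LX-A1656 the effect at 168 h minus that at 24 h was -5.74 for Ghr, -1.10 for Stat5a, -1.49 for Stat5b, -2.46 for Igf1, -5.40 for Igfals, -10.50 for Hsd3b5, -10.25 for Car3 and -6.53 for Elovl3. Against 72 h the differences were -2.45 for Ghr, -1.09 for Stat5a, -0.79 for Stat5b, -1.05 for Igf1, -3.04 for Igfals, -7.51 for Hsd3b5, -7.58 for Car3 and -4.80 for Elovl3.

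With LX-A2003 the effect at 168 h minus that at 24 h was -3.85 for Ghr, -0.72 for Stat5b, -1.97 for Igf1, -3.13 for Igfals, -4.78 for Socs2, -6.53 for Hsd3b5, -5.69 for Car3 and -4.89 for Elovl3. Against 72 h it was -2.74 for Ghr, -1.96 for Igf1, -3.01 for Igfals, -3.55 for Socs2, -5.85 for Hsd3b5, -4.97 for Car3 and -5.61 for Elovl3. With LX-A3928 the 168 h effect minus the 24 h effect was -3.44 for Ghr, -1.24 for Igf1, -3.42 for Igfals, -5.94 for Socs2, -2.90 for Hsd3b5, -4.17 for Car3 and -3.19 for Elovl3. Against 72 h it was -2.86 for Ghr, -1.26 for Igf1, -3.21 for Igfals, -2.96 for Hsd3b5, -3.88 for Car3 and -3.09 for Elovl3. Without PBS replicate 2 at 168 h the Socs2 values against 24 h were -3.98 with LX-A2003 and -5.15 with LX-A3928, and that against 72 h -2.75 with LX-A2003. Without LX-A3928 replicate 3 at 168 h the Hsd3b5 values with LX-A3928 were -3.71 against 24 h and -3.77 against 72 h, and without LX-A1656 replicate 2 at 72 h that with LX-A1656 against 72 h was -6.87.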

How the results depend on the processing

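For the 9 genes, no value called in the main fit or in an alternative changed direction between them. Direction was not compared where neither value was called. Of the values under other settings 1582 kept their side of the threshold, 35 lost the call and 21 gained it. Of those without 1 library 2247 kept it, 37 lost it and 20 gained it. Counts of genes called moved as follows. At 24 h LX-A1656 against PBS had 0 calls, but 1 in DESeq2, 2 in the fit of those 8 libraries and 1 without the 6 libraries that stood apart. LX-A2003 against PBS had 1, but 0 without the filter and 0 with those 8 libraries, and LX-A3928 against PBS had 1, but 2 without the filter, where Cish is tested. LX-A2003 against LX-A1656 had 1, but 0 without the filter and 2 with only those 8 libraries, and LX-A3928 against LX-A1656 had 1, but 2 with only those 8. At 72 h LX-A3928 against LX-A2003 had 0, but 1 with library totals, 1 in DESeq2, 1 with those 8 libraries and 2 without the libraries that stood apart. Ghr, gained with those 8 libraries, was higher with LX-A3928, while Elovl3 and Stat5a, gained in the others, were lower. At 168 h LX-A3928 against LX-A2003 had 3, but 1 with those 8 libraries, 2 without the filter, 4 in DESeq2 and 2 without the libraries that stood apart. Against PBS at 72 h LX-A2003 had 2, but 3 with those 8 libraries and 3 without the libraries that stood apart, and LX-A3928 had 4, but 3 without the filter and 3 with those 8 libraries. Against PBS at 168 h LX-A2003 had 9, but 8 with DESeq2's size factors, 6 with library totals, and 7 each without the filter, in DESeq2 and without the libraries that stood apart. LX-A3928 had 9, but 7 with library totals, 8 with those 8 libraries and 8 without the libraries that stood apart. LX-A2003 against LX-A1656 had 6, but 7 with library totals at 72 h and 7 without the libraries that stood apart at 168 h. Stat5a was the gene gained at both times, lower with LX-A2003 at 72 h and higher at 168 h. LX-A3928 against LX-A1656 at 72 h had 7, but 8 with library totals, 6 with those 8 libraries and 6 without the libraries that stood apart. Stat5b, lower with LX-A3928, was gained with library totals, and Elovl3 was lost in the others. The count at 168 h was 7 in these alternatives too, though Igf1 was lost in the last 2 of them. Socs2, lower with LX-A3928, was gained with those 8 libraries, and Stat5a, higher, without the libraries that stood apart. For effects at 168 h, LX-A1656 had 8, but 7 against 24 h and 6 against 72 h with library totals and 7 against 72 h without the libraries that stood apart. LX-A2003 against 24 h had 8, but 7 with library totals, and LX-A3928 against 72 h had 6, but 7 without the libraries that stood apart. The gene gained with LX-A3928 was Stat5a, whose effect was higher at 168 h than at 72 h (0.81, edgeR adjusted p = 0.028). PBS at 72 h against 24 h had 0, but 1 with those 8 libraries. The cause was not tested.

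Leaving out 1 library gave, for LX-A1656, LX-A2003 and LX-A3928 against PBS, 0 to 0, 0 to 1 and 1 to 1 calls at 24 h, 7 to 7, 2 to 3 and 2 to 4 at 72 h, and 8 to 8, 7 to 8 and 8 to 9 at 168 h. Between LX-A2003 and LX-A1656, LX-A3928 and LX-A1656, and LX-A3928 and LX-A2003 it gave 0 to 1, 1 to 1 and 0 to 0 at 24 h, 6 to 7, 7 to 7 and 0 to 2 at 72 h, and 6 to 7, 7 to 7 and 2 to 5 at 168 h. The changes of effect between times gave 6 to 8, and PBS over time 0 to 0. Libraries of different groups that shared a replicate number were about as alike as others (median correlation of deviations 0.00858 for shared numbers, -0.00086 for others). That check pooled pairs within and across times, so it cannot exclude pairing within a time. With the replicate number as a block the calls were 3 of 9 genes for LX-A3928 at 72 h (Elovl3 lost) and 7 for LX-A2003 at 168 h (Stat5a and Socs2 lost), and no other count moved under the block.

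Over all genes, the fit of only the libraries compared called 801, 769 and 1407 genes at 24 h for LX-A1656, for LX-A2003 and for LX-A3928, against 363, 265 and 413 in the fit of 48. Depth limits Cish (0 to 18 reads a library), Socs2 at 24 h, and Hsd3b5 and Igfals with LX-A1656 at 168 h. The amplicon kit reads a fragment of each gene, so a change of isoform would not be seen. Strain, sex and collection hour are unknown, and several of these genes are known to depend on sex or hour.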

Other observations

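Genes of the daily clock, which also shape when Elovl3 and other liver genes are on, moved in both directions. Of 18 tested, 2 rose and 3 fell at 24 h with LX-A1656, 4 rose and 3 fell with LX-A2003, and 6 rose and 4 fell with LX-A3928. At 168 h 8 rose and 7 fell with LX-A1656, 8 rose and 7 fell with LX-A2003, and 6 rose and 7 fell with LX-A3928, which is 44.4%, 44.4% and 33.3% higher beside 34.1%, 29.8% and 27.3% of all genes. Npas2, a partner of the clock activator ARNTL, had 2.02 ± 0.42 CPM with LX-A1656, 4.01 ± 0.72 CPM with LX-A2003, 4.07 ± 1.28 CPM with LX-A3928 and 41.3 ± 3.79 CPM with PBS at 168 h (SD, n = 4). Hlf, a transcription factor of the clock output, fell by 3.58, 3.28 and 2.45 on the log2 scale. Per1, a clock repressor that stress hormones also induce, had 177 ± 41.0 CPM, 66.9 ± 10.3 CPM and 29.8 ± 12.2 CPM with the oligonucleotides in that order and 2.06 ± 1.68 CPM with PBS. The hour of collection is not known, and its part in these values was not tested.

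Fgf21, a fasting hormone known in mice to blunt STAT5 signalling in liver, had 60.4 ± 36.5 CPM with LX-A1656, 51.7 ± 11.9 CPM with LX-A2003, 109 ± 96.2 CPM with LX-A3928 and 7.36 ± 4.20 CPM with PBS at 72 h. In the list of 16 fasting and FGF21 genes that it comes from, 3 rose and 8 fell at 72 h with LX-A1656, 2 rose and 1 fell with LX-A2003, and 2 rose and none fell with LX-A3928. Of all genes 48.2%, 12% and 9.8% were called at 72 h in that order, 23.4%, 6.55% and 5.33% as lower. Markers of other liver cells were read at 168 h as well. Of 10 stellate cell and myofibroblast markers none fell, and 9 rose for LX-A1656, 8 for LX-A2003 and 7 for LX-A3928, while of 8 sinusoidal endothelial markers 6 fell and 2 rose with each. Of 7 cholangiocyte markers 4 rose with each. Summed over all 7, these had 449 to 661, 269 to 364 and 221 to 366 CPM, in the order of the stellate counts. PBS had 115 to 144 CPM. Beside these lists, in the same order, 34.1%, 29.8% and 27.3% of all genes rose and 29.7%, 25.3% and 20.7% fell.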
